A study of Homo sapiens with 6 samples.

Results

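Respiratory complexes II to V are the part of the mitochondrial respiratory chain downstream of complex I, together with the ATP synthase. Their genes were taken from the deposited expression table by symbol: the SDH subunits and assembly factors of complex II, all symbols beginning UQCR with CYC1 and CYTB for complex III, all beginning with COX and a digit for complex IV, and the ATP5F, ATP5M, ATP5P and ATP5IF symbols with ATP6 and ATP8 for complex V. The choice used names only, and it gave 65 of the 15024 genes in the table. Of these, 58 were nuclear coding genes, 6 were encoded by mitochondrial DNA (COX1, COX2, COX3, CYTB, ATP6 and ATP8, as the table names them), and 1 was the antisense transcript COX10-AS1. COX1 and COX2 here are cytochrome c oxidase subunits, not the prostaglandin synthases that share those short names.

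The cells were of the established line MDA-MB-231, from a human breast cancer of the triple-negative type, carrying a loss of MLL3 (gene KMT2C, a histone H3 lysine 4 methyltransferase) and grown in DMEM with fetal bovine serum. All 6 libraries shared the Mll3-null genotype and a 14-day exposure to 10 µM forskolin, an activator of adenylyl cyclase. Sorting gave 3 CD44+CD104high libraries (called CD104high below) and 3 CD44+CD104-/low libraries (called CD104low). CD104 is integrin beta 4, and the series title places the work in the study of a hybrid epithelial-mesenchymal state. Wild-type and untreated cells were not analysed here, so no value below separates the effect of MLL3 loss or of forskolin. The labels call the replicates biological but name no culture or clone, so p-values measure only the spread between these samples, which may be technical.

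Complex II is succinate dehydrogenase, which passes electrons from succinate to ubiquinone and is also an enzyme of the citric acid cycle. Complex III passes electrons from ubiquinol to cytochrome c, complex IV passes them from cytochrome c to oxygen, and both pump protons that complex V, the ATP synthase, uses to make ATP. Complex II is made wholly from nuclear genes, whereas complexes III, IV and V each join nuclear subunits to a few made inside the mitochondrion from its own DNA.

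Whole reads could be recovered from the deposited values, and they came to between 49791498 and 60069719 per library. ITGB4, which encodes the sorted marker CD104, stood at a scaled read count (the deposited reads divided by a library size factor) of 16463 ± 2616 in CD104high and 1699 ± 503 in CD104low (mean ± SD, n = 3), and CD44 differed by 0.05 on the log2 scale (limma adjusted p = 0.708). VIM, the vimentin that marks this mesenchymal-like line, stood at 21251 ± 1831 and 20323 ± 386. The receptor gene ERBB2 stood at 8165 ± 409 and 6519 ± 430, higher in CD104high (difference 0.33, limma adjusted p = 0.00621). The receptor genes ESR1 and PGR were not analysed here, and the receptor type of the line was not tested. KMT2C was read at 3816 ± 221 and 2507 ± 371 scaled reads, and with no wild-type library this checks no deletion. Of 14 marker genes of blood, endothelial and other cells, 3 were in the table: LAPTM5 at 447 ± 98.7 against 199 ± 24.9, CD14 at 330 ± 48.7 against 176 ± 31.7, and PECAM1 at 5.82 ± 2.62 against 9.9 ± 5.37, below the filter on low values; the rest, PTPRC and CDH5 among them, were not analysed here. LAPTM5 and CD14 were higher in CD104high (log2 differences of 1.15 and 0.91), and their part in the results below was not tested.

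Of the 58 nuclear genes of complexes II to V, 36 were lower in CD104high cells, 22 were not called and 7 had estimates above 0, while the 6 mitochondrially encoded genes did not pass the test in either direction. All 65 genes passed the filter on low values (a scaled read count of at least 10 in at least 3 libraries). Of the 65 genes, 36 fell in CD104high, none rose and 29 were not called, at a limma adjusted p below 0.05 over 14420 genes. At an unadjusted p below 0.05, 2 were higher (SDHC and COX2), and both edgeR and DESeq2 on the recovered reads called 0 higher. All 36 were nuclear coding genes, which is 62.1% of the 58. The background was high: of all genes tested, 21.6% were lower and 21.8% were higher in CD104high, 43.4% in all. The median difference (CD104high minus CD104low, on the scale of log2 of the scaled read count plus 1, which understates changes of low genes) was -0.38 over the nuclear members and 0.02 over all genes tested. All 3 CD104high values lay below all 3 CD104low values for 69.0% of the nuclear members, against 26.9% of all genes, and the reverse held for 4 members, against 27.4% of all genes. In the authors' deposited table of the same comparison, 38 of the members were lower and 2 were higher, and all 36 genes called here were among the 38; that table calls 22.6% of its genes lower.

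**Figure D1:**
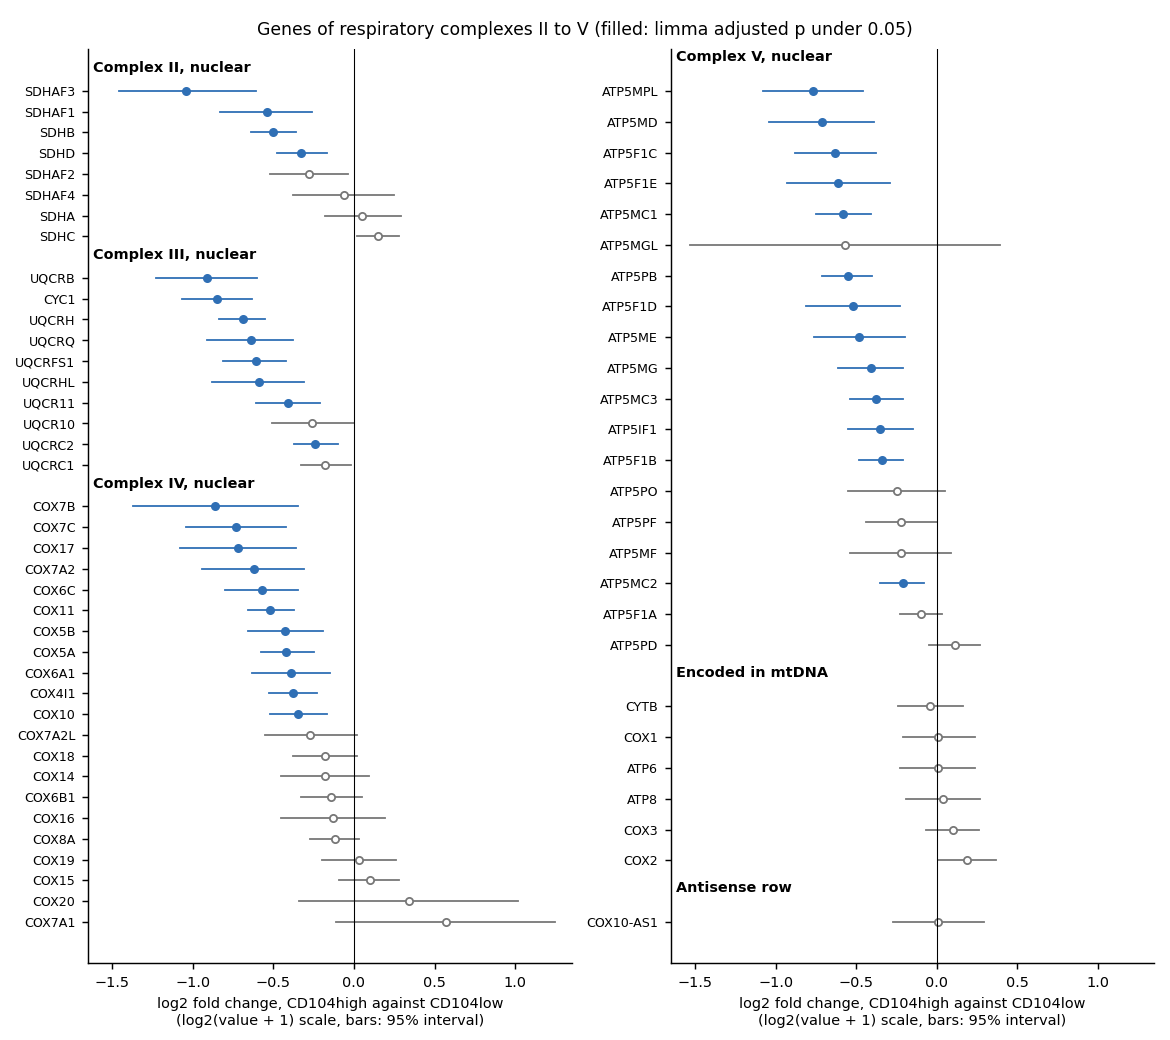
Difference between CD104high and CD104low for each of the 65 genes (x axis, log2 scale; points are limma estimates and bars their 95% confidence intervals, n = 3 per group), grouped by complex on the y axis. The 36 called genes all lie left of 0, and the 6 mitochondrially encoded genes lie between -0.04 and 0.19.

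The nuclear members make short mRNAs, with a median principal transcript of 1254 bases against 3008 over all genes, and length moved with the sort. Across 14398 genes with a length, the log2 difference and transcript length had a Spearman rho of 0.22, given as a description because genes are not independent; among the nuclear members rho was 0.14. When each library's log2 values were corrected for transcript length and GC content by a smooth fit over all genes, 30 members were lower (21.4% of all genes were) and 5 were higher (19.3% of all genes were), and the members' median was -0.19 in place of -0.35. Of the 36 genes, 28 stayed lower under the correction, and each gene whose call it removed or added is named below. The source of the relation with length was not tested.

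Promoter sequence is shown for 4 nuclear members, to set genes that fell beside 1 that was not called. All 4 hold a match to a site named below, so they do not stand for all members. COX7C, UQCRFS1 and ATP5MPL, which also fell, hold none of the sites searched. RefSeq (GRCh38.p14) gave a promoter for 46 of the 58 nuclear members, 28 of them called lower, and the window searched ran from 250 bases before to 50 bases after the first listed start. The ETS core CCGGAAG, a site class bound by GABP, was found on either strand in 20 of the 46 (43.5%) and in 10.7% of 27305 promoters of the same length. Those 27305 are all promoters of the reference, also of genes not expressed in these cells. No share was taken over expressed genes alone, so no excess here is shown to be particular to the members. It was in 14 of the 28 genes that fell and in 6 of the 18 others. The palindromic site of nuclear respiratory factor 1 (the letters in capitals in COX17 below) was in 4 of the 46 (8.7%) and in 1.36% of all promoters. TGACGTCA, the cAMP response element, was in 3 of the 46 (6.52%, against 1.98%), CACGTG, the E-box, in 5 (10.9%, against 7.43%) and AAGATGGC, a YY1 site, in 6 (13.0%, against 3.03%). None of these letter strings overlaps another in the sequences below. Each sequence gives the 150 bases before the start, 5′ to 3′ on the gene's strand, with matches in capitals: UQCRH at chr1:46303548-46303697 (plus strand), SDHD at chr11:112086723-112086872 (plus), COX17 at chr3:119677407-119677556 (minus) and ATP5PD at chr17:75046970-75047119 (minus).
UQCRH: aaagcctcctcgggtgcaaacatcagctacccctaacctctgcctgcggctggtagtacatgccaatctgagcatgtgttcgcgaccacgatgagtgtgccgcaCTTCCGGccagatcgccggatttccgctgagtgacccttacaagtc
SDHD: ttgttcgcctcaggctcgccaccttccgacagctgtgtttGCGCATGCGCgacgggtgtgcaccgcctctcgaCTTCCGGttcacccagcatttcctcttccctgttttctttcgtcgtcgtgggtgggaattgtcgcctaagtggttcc
COX17: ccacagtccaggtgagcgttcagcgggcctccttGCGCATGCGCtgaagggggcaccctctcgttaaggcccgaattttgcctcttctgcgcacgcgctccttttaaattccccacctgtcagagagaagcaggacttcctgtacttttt
ATP5PD: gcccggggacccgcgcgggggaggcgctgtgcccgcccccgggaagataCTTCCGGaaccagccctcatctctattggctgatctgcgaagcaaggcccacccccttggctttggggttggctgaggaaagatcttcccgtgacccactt
UQCRH carries the ETS core (as its reverse complement CTTCCGG) 46 bases before the start, and SDHD carries the nuclear respiratory factor 1 site 110 bases and the ETS core 77 bases before it. COX17 carries the nuclear respiratory factor 1 site 116 bases before its start, and ATP5PD, which was not called, carries the ETS core 101 bases before its own. These distances run from the RefSeq start. The GENCODE annotation, used below for gene positions, starts UQCRH at 46303631 and SDHD at 112086773, earlier than RefSeq does. By those starts, the ETS core of both genes lies inside the annotated gene. The nuclear respiratory factor 1 site of SDHD and the printed matches of COX17 and ATP5PD lie before the gene in both annotations. COX17 also holds an ETS core 10 bases after its RefSeq start, inside the window searched but outside the bases printed. A match is a description of letters, and binding was not measured.

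In complex II, the iron-sulfur subunit and 1 membrane anchor fell, while the catalytic flavoprotein and the other anchor did not pass the test. SDHB, which holds the iron-sulfur clusters (ENSG00000117118.10, chr1:17018722-17054170 in GENCODE 29 on GRCh38, minus strand), was read at 3315, 3520 and 3482 in CD104high and at 4966, 4662 and 4950 in CD104low. The groups did not overlap, and the difference was -0.50 (SE 0.06, limma adjusted p = 0.000619). SDHD, an anchor that helps bind ubiquinone and whose promoter is printed above, was read at 3259, 3287 and 3392 against 4445, 3936 and 4090 (difference -0.33, SE 0.07, limma adjusted p = 0.0053). The length and GC correction left SDHD at 0.04, with no call. SDHC, the other anchor, was read at 7008, 7111 and 7303 in CD104high and at 6656, 6253 and 6418 in CD104low, so all 3 CD104high values were the higher ones. Its difference of 0.15 (95% interval 0.02 to 0.28) missed the threshold (limma adjusted p = 0.0625), and the authors' deposited table gives an adjusted p of 0.0224. SDHA, the flavoprotein that oxidises succinate, was read at 827.5, 718.4 and 682.3 against 719.1, 738.1 and 688.4. Those groups overlapped, and the interval of the difference ran from -0.18 to 0.29 (limma adjusted p = 0.723). The 4 subunits of 1 enzyme thus ran from -0.50 to 0.15. With the length and GC correction SDHB stood at -0.27, SDHC at -0.07 and SDHA at 0.05, and only SDHB was called. The correction thus turned the sign of SDHC, and the 2 anchors were then both uncalled.

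Among the complex II assembly factors, SDHAF3 had the lowest estimate of the 65 genes. SDHAF3 and SDHAF1 help to place or protect the iron-sulfur clusters of SDHB, SDHAF2 attaches the flavin to SDHA, and SDHAF4 binds flavinated SDHA. SDHAF3 was read at 590.4, 590.4 and 819.2 in CD104high and at 1558, 1029 and 1543 in CD104low, a 2.05-fold lower level (difference -1.04, SE 0.19, limma adjusted p = 0.00292). SDHAF1 was read at 714.9, 894.0 and 975.4 against 1330, 1147 and 1266 (difference -0.54, SE 0.13, limma adjusted p = 0.00868). Both assembly factors linked to SDHB therefore fell along with it. SDHAF2 differed by -0.28 and SDHAF4 by -0.06, neither of them called (limma adjusted p = 0.0625 and 0.743). The SDHAF2 groups did not overlap, and the interval of its difference ran from -0.52 to -0.04. SDHAF2 was lower in the authors' deposited table (adjusted p = 0.0237) and by DESeq2 (0.0428), but was not called by edgeR (0.0545). The length and GC correction left SDHAF2 at -0.15 with no call (limma adjusted p = 0.31). Whether the factors linked to SDHB and to SDHA differ was not tested.

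Complex III was the complex in which the largest share of nuclear subunits fell: 8 of 10 (80.0%, beside 21.6% of all genes), with a median difference of -0.60. All 10 had groups that did not overlap, beside 26.9% of all genes in that direction. With the length and GC correction 80.0% were lower, beside 21.4% of all genes, with a median of -0.41. The shares of the complexes were not tested against each other. CYC1, the cytochrome c1 that hands electrons to cytochrome c, was read at 13496, 16383 and 16501 in CD104high and at 29394, 25200 and 28814 in CD104low. That was a 1.80-fold lower level (difference -0.85, SE 0.09, limma adjusted p = 0.000447), and the length and GC correction left it at -0.85. UQCRH, the hinge protein beside cytochrome c1 (ENSG00000173660.12, chr1:46303631-46316776, plus strand), was read at 5599, 5534 and 5810 against 9655, 8562 and 9191 (difference -0.69, SE 0.06, limma adjusted p = 0.000273). It had the smallest p of the 65 genes, and its promoter with the ETS core is printed above. UQCRFS1, the Rieske iron-sulfur protein, was read at 5705, 6428 and 6975 against 9717, 9071 and 10407 (difference -0.61, SE 0.09, limma adjusted p = 0.00101).

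Of the small subunits of complex III, UQCRB, UQCRQ and UQCR11 fell. UQCRB, which binds at the ubiquinone site, stood at 8415 ± 742 in CD104high and 16013 ± 3192 in CD104low (difference -0.91, SE 0.14), UQCRQ differed by -0.64 and UQCR11 by -0.41. UQCRHL, an intronless copy of UQCRH, was read at 312.1, 372.4 and 402.5 against 539.0, 524.7 and 566.0 (difference -0.59), but reads of these near-identical copies may be shared between them. UQCRC2, a core protein, differed by -0.24. Its call was lost without CD104high replicate 1 (limma adjusted p = 0.0582), without CD104low replicate 1 (0.0513) and with the length and GC correction (0.0847). With that correction on principal transcripts UQCRC2 stood at -0.16 and was called (limma adjusted p = 0.0457). UQCRC1, the other core protein, and UQCR10 were not called, at -0.18 and -0.26 (limma adjusted p = 0.0647 and 0.0931). UQCRC1 was called lower by edgeR (adjusted p = 0.0395) and with the length and GC correction (limma adjusted p = 0.0393). UQCR10 stood at 0.04 after the length and GC correction.

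In complex IV, 8 of 11 nuclear subunits fell (72.7%, beside 21.6% of all genes), with a median of -0.42. With the length and GC correction 54.5% were lower, beside 21.4% of all genes, with a median of -0.19. COX4I1, the largest nuclear subunit and the site of ATP binding, was read at 13973, 14516 and 14284 in CD104high and at 19459, 17158 and 19204 in CD104low (difference -0.38, SE 0.07, limma adjusted p = 0.00226). COX6C was read at 4600, 4722 and 5243 against 7729, 6180 and 7870 (difference -0.57, limma adjusted p = 0.00255). COX5A was read at 4279, 4549 and 4980 against 6336, 5802 and 6266 (difference -0.42, limma adjusted p = 0.00271). In these 3 genes every CD104high value lay below every CD104low value. The length and GC correction left COX4I1 at -0.43, COX6C at -0.18 and COX5A at -0.19, each still called. COX7C differed by -0.73 and COX5B by -0.43, or by -0.33 and -0.21 with the length and GC correction. COX5B lost its call without CD104low replicate 1 (limma adjusted p = 0.0527) and in a correction on principal transcripts (0.0571). COX7B was read at 3089, 2856 and 4164 against 7012, 4128 and 7613, and was the 1 called gene whose groups overlapped (difference -0.86, SE 0.23). It lost its call without CD104high replicate 1 or CD104low replicate 1 (limma adjusted p = 0.0539 and 0.0679).

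Complex IV subunits exist in isoforms, and the ubiquitous and the muscle form of subunit VIIa stood far apart in level. Per kilobase of the principal transcript, the ubiquitous COX7A2 stood at 8350 in CD104high and 13000 in CD104low, and the muscle form COX7A1 at 48.5 and 32.9. COX7A2 was read at 7202, 6998 and 8683 against 13504, 9340 and 12702 (difference -0.62, SE 0.14, limma adjusted p = 0.00749), and the length and GC correction left it at -0.21 with no call (limma adjusted p = 0.0879). COX7A1 was read at 33.9, 40.6 and 36.5 against 18.1, 31.3 and 25.8, so its CD104high values were all the higher ones, but the difference of 0.57 was not called (limma adjusted p = 0.153). COX7A2L, a related protein that joins complexes III and IV in supercomplexes, was read at 4298, 4130 and 5676 against 5809, 5005 and 6022, and it was not called (difference -0.27, limma adjusted p = 0.116). It was called without CD104high replicate 3, at -0.41 (limma adjusted p = 0.00765). COX6A1 was read at 1637, 1758 and 2082 against 2540, 2168 and 2432 (difference -0.39, limma adjusted p = 0.0171). COX6A1 was the least steady call: it was kept in 2 of 6 fits that each left out 1 library (adjusted p between 0.051 and 0.0744 without CD104high replicate 1 or 2 or CD104low replicate 1 or 3), and the length and GC correction turned its sign, to 0.10. COX6B1 and COX8A differed by -0.14 and -0.12 and were not called. COX6B1 was read at 5970, 5921 and 7069 against 7018, 6534 and 7275, and COX8A at 4955, 4774 and 5125 against 5224, 5169 and 5771. The muscle, lung and testis forms COX4I2, COX6A2, COX6B2 and COX8C were not analysed here.

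Of the 9 factors named COX that build complex IV, 3 fell, each with groups that did not overlap. That is 33.3%, beside 21.6% of all genes lower and 26.9% not overlapping in that direction, and with the length and GC correction 22.2%, beside 21.4%. COX11, which delivers copper to COX1, was read at 3447, 3428 and 3285 in CD104high and at 5091, 4611 and 4866 in CD104low (difference -0.52, SE 0.06, limma adjusted p = 0.00061). COX17, the copper chaperone that supplies it and whose promoter is printed above, was read at 1409, 1307 and 1787 against 2675, 1962 and 2831 (difference -0.72, SE 0.16, limma adjusted p = 0.00672). COX10, which makes heme O on the path to heme A, was read at 1272, 1221 and 1179 against 1538, 1621 and 1514 (difference -0.35, SE 0.08, limma adjusted p = 0.00672). COX17 lost its call under the length and GC correction, at -0.29 (limma adjusted p = 0.0614). COX15, the next enzyme on the heme A path, differed by 0.10 and was not called. COX14, COX16, COX18, COX19 and COX20 ran from -0.18 to 0.34, none of them called, and COX20 was low, between 34.8 and 82.4 in every library. COX10-AS1 lies on the minus strand, and its annotated start (14069495) adjoins that of COX10 on the plus strand (14069496). It stood at 611 ± 54.3 and 609 ± 72.6.

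In complex V, 5 of the 9 genes of the catalytic head and stalks fell (55.6%, beside 21.6% of all genes), with a median of -0.34. With the length and GC correction 66.7% were lower, beside 21.4% of all genes, with a median of -0.25. In the uncorrected fit, the alpha and beta subunits of the head were not called alike. ATP5F1B, the catalytic beta subunit, was read at 37673, 38284 and 40103 in CD104high and at 49819, 47584 and 49995 in CD104low (difference -0.34, SE 0.06, limma adjusted p = 0.00221). ATP5F1A, the alpha subunit that alternates with it, was read at 35177, 35979 and 35863 against 37331, 37333 and 39872. Its groups did not overlap, but the difference of -0.10 (95% interval -0.23 to 0.03) was not called. After the length and GC correction ATP5F1A stood at -0.22 and was called (limma adjusted p = 0.0174), beside -0.25 for ATP5F1B, and the difference between both genes was not tested.

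The central stalk of complex V fell as a whole. ATP5F1C, the gamma subunit that turns inside the head, was read at 13471, 13193 and 15904 against 24348, 18778 and 23086 (difference -0.63, SE 0.11, limma adjusted p = 0.00237). The length and GC correction left ATP5F1C at -0.29, still called. ATP5F1E and ATP5F1D, the epsilon and delta subunits, differed by -0.61 and -0.52. ATP5F1D lost its call without CD104low replicate 1 (limma adjusted p = 0.0526). In the side stalk, which holds the head still, only 1 of 4 genes was called. ATP5PB, the b subunit, was read at 16684, 17361 and 15497 against 25793, 23126 and 23711 (difference -0.55, SE 0.07, limma adjusted p = 0.000629). ATP5PF (coupling factor 6) and ATP5PO (the oligomycin sensitivity protein) differed by -0.22 and -0.25. ATP5PD, the d subunit, was read at 2837, 2769 and 2911 against 2702, 2458 and 2727, so every CD104high value was higher, with a difference of 0.11 that was not called. The length and GC correction called it higher, at 0.27 (limma adjusted p = 0.0066).

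The membrane part of complex V held 7 genes of 9 that fell (77.8%, beside 21.6% of all genes), with a median of -0.48. With the length and GC correction 44.4% were lower, beside 21.4% of all genes, with a median of -0.27. Subunit c of the rotating ring is encoded by 3 genes that give the same mature protein, and all 3 fell. ATP5MC1 was read at 3430, 3172 and 3225 in CD104high and at 5021, 4503 and 5198 in CD104low (difference -0.58, SE 0.07, limma adjusted p = 0.000678). ATP5MC3 was read at 13092, 13715 and 14081 against 19194, 16278 and 17796 (difference -0.38, SE 0.07, limma adjusted p = 0.00362), and ATP5MC2 at 5012, 5114 and 4999 against 6093, 5600 and 5845 (difference -0.21, SE 0.06, limma adjusted p = 0.0193). The ATP5MC2 call was the weaker one: it was lost without CD104high replicate 1 or CD104low replicate 1 or 3 (limma adjusted p = 0.0688, 0.0786 and 0.0587). The length and GC correction left it at -0.09 with no call, but on principal transcripts it stood at -0.23 and was called (limma adjusted p = 0.0112).

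Of the small membrane subunits, ATP5MPL (now ATP5MJ) was read at 3335, 3147 and 4026 against 6602, 4824 and 6600 (difference -0.77, SE 0.14, limma adjusted p = 0.00269). ATP5MD (now ATP5MK, a subunit at the dimer interface) differed by -0.71, ATP5ME by -0.48 and ATP5MG by -0.41. The length and GC correction put ATP5MG at 0.03 and ATP5ME at -0.27, neither of them called. ATP5ME also lost its call without CD104high replicate 1 or CD104low replicate 1 or 3 (limma adjusted p = 0.0531, 0.0572 and 0.0563). ATP5MF differed by -0.22 and was not called, and ATP5MGL, a copy of ATP5MG that may share its reads, was read at 7.3 to 24.7 per library. ATP5IF1, the inhibitor that stops the synthase from running backwards, was read at 4890, 5085 and 5538 against 7235, 5872 and 6682, and it fell (difference -0.35, SE 0.09, limma adjusted p = 0.0126). Without CD104high replicate 1 or CD104low replicate 1, ATP5IF1 was not called (limma adjusted p = 0.055 in each case), and a correction on principal transcripts in place of the longest left it at -0.07 (limma adjusted p = 0.381).

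**Figure D2:**
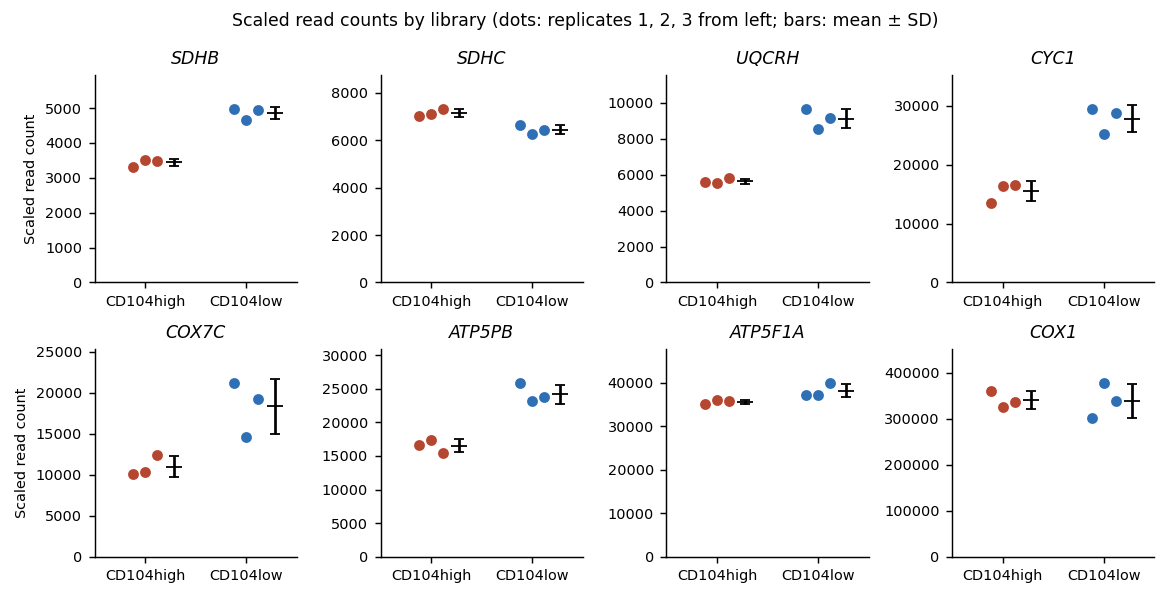
Scaled read count (y axes, from 0, linear) of 8 genes in each library, with dots for replicates and bars for mean ± SD (n = 3 per group). SDHB, UQCRH, CYC1, COX7C and ATP5PB lie lower in CD104high with no overlap, SDHC lies slightly higher, ATP5F1A differs by -0.10 and COX1 overlaps.

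The mitochondrially encoded subunits did not pass the test in either direction, and their groups overlapped in all 6 genes. COX1, the catalytic core of complex IV (chromosome M, 5904 to 7445), was read at 361416, 324900 and 335952 in CD104high and at 301837, 376754 and 337597 in CD104low. The interval of its difference ran from -0.21 to 0.24 (limma adjusted p = 0.926). COX2, which receives electrons from cytochrome c, was read at 167881, 147761 and 171280 against 137488, 148630 and 140233 (difference 0.19, 95% interval 0.01 to 0.37, limma adjusted p = 0.0859). COX2 was called higher without CD104high replicate 2, at 0.26 (limma adjusted p = 0.0446), and the authors' deposited table gives it an adjusted p of 0.0385. COX3 was read at 203271, 194003 and 199906 against 177553, 198507 and 183467 (difference 0.10, interval -0.07 to 0.26). CYTB, the only complex III subunit made in the mitochondrion, was read at 80217, 74380 and 66618 against 75474, 81388 and 70068, with an interval from -0.24 to 0.16. It stood in this way beside nuclear partners of which 8 of 10 fell.

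ATP6, the proton channel of the synthase, was read at 121524, 110496 and 100560 against 108533, 123976 and 98512, with an interval of the difference from -0.23 to 0.24. ATP8 was read at 10444, 9722 and 8416 against 8630, 10487 and 8712, with an interval from -0.19 to 0.27. Both genes overlap on the mitochondrial genome (8366 to 8572 for ATP8 and 8527 to 9207 for ATP6), so their reads are not independent. The intervals of COX1, COX3, CYTB, ATP6 and ATP8 do not show equal levels: each allows a difference of either sign. That of COX2 (0.01 to 0.37) is positive throughout. At an unadjusted p below 0.05 only COX2 of the 6 differed, and neither edgeR nor DESeq2 on the recovered reads called any of them. With the length and GC correction COX2, COX3, ATP6 and ATP8 were called higher (0.54, 0.43, 0.41 and 0.56). Over all 13 protein genes of mitochondrial DNA, 1 fell, the complex I subunit ND2 (difference -0.34, limma adjusted p = 0.013), and the median was 0.01. ND2 lost its call without CD104low replicate 1 (limma adjusted p = 0.0552) and stood at 0.04 with the length and GC correction, under which none of the 13 was lower, 7 were higher and the median was 0.41.

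Summed by library, the nuclear members took 0.587%, 0.6% and 0.631% of reads in CD104high and 0.849%, 0.750% and 0.823% in CD104low, so the groups did not overlap. The 6 mitochondrially encoded members took 1.78%, 1.62% and 1.62% against 1.46%, 1.76% and 1.5%, and there the groups overlapped through CD104low replicate 2 alone. The difference of 0.0983 percentage points between the means became 0.192 without that library and 0.0428 without CD104low replicate 1. Wilson 95% intervals of these shares reach at most 0.0036 percentage points to either side and cover counting error only. For every read on a nuclear member there were 3.03, 2.71 and 2.56 mitochondrially encoded reads in CD104high and 1.72, 2.35 and 1.82 in CD104low. By complex, the ratio was 1.31 ± 0.205 against 0.866 ± 0.144 in complex III, 10.7 ± 0.94 against 7.34 ± 1.57 in complex IV and 0.736 ± 0.099 against 0.559 ± 0.104 in complex V (mean ± SD, n = 3). These ratios by complex counted nuclear subunits only, without assembly factors, COX7A2L and ATP5IF1. The ratio was thus higher in CD104high as a mean in all 3 complexes. In complex V the groups overlapped, with 0.632 in CD104high replicate 3 and 0.677 in CD104low replicate 2. In bulk samples, fewer cells making an mRNA and less mRNA per cell cannot be told apart.

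**Figure D3:**
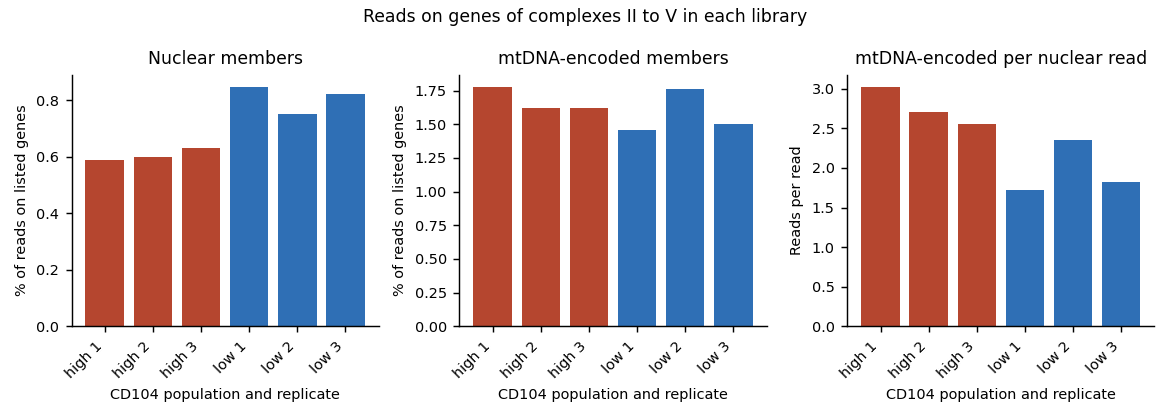
Percentage of reads on the 58 nuclear members (left), on the 6 mitochondrially encoded members (middle) and reads of the second per read of the first (right), as bars from 0 for each library. The nuclear share lies lower in the 3 CD104high libraries (0.587% to 0.631%) than in the 3 CD104low libraries (0.750% to 0.849%), and the mitochondrially encoded shares overlap.

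CD104low replicate 2 held the lowest CD104low value for 48 of the 58 nuclear members (82.8%, against 43% of all genes tested). CD104high replicate 3 held the highest CD104high value for 41 (70.7%, against 43.8%). The median deviation of the nuclear members from each gene's mean was -0.24, -0.21 and -0.12 in CD104high and 0.26, 0.06 and 0.24 in CD104low. Of the pairs that join both groups, CD104high replicate 3 and CD104low replicate 2 lay closest in this median. They were also the libraries in which the Spearman rho between a gene's deviation and its transcript length, over all genes, lay nearest 0. That rho was 0.23, 0.25 and 0.06 in CD104high and -0.28, -0.08 and -0.20 in CD104low. How much of these library differences follows length was not tested beyond the correction given above.

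**Figure D4:**
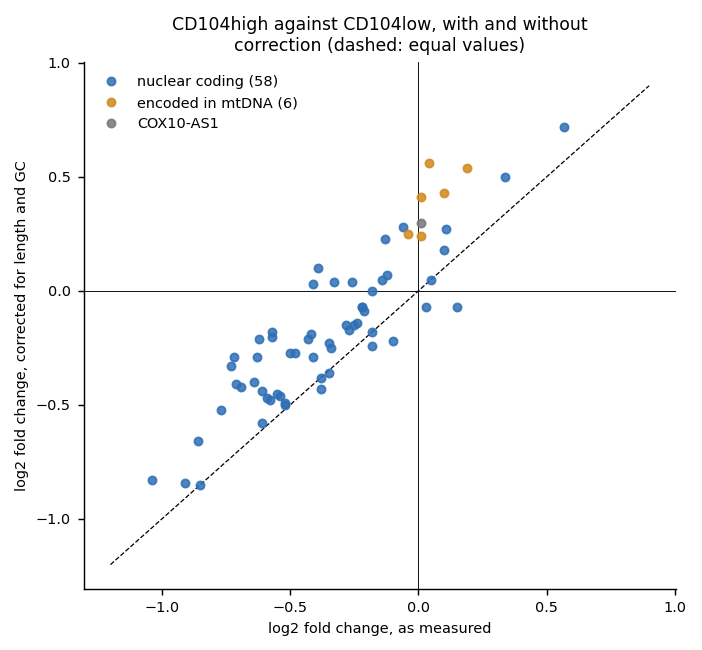
Difference (log2) of each of the 65 genes as measured (x axis) and after correction for transcript length and GC content (y axis), with equal values on the dashed line. Most nuclear genes shift towards 0, CYC1 stays at -0.85, and the mitochondrially encoded genes shift upward.

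Assembly factors and related genes outside the symbol rule were examined from lists of genes linked to each complex. Of 6 complex III factors, 3 fell: UQCC3 (-0.65), LYRM7 (-0.72) and BCS1L (-0.49), of which LYRM7 and BCS1L deliver the Rieske protein UQCRFS1. Of 21 genes listed with complex IV, not all of them assembly factors, 12 fell, none rose, and the median was -0.35. COA4, HIGD1A and COA6 had the smallest p among them (-0.70, -0.99 and -0.90). CYCS, cytochrome c itself, stood at 8831 ± 1170 against 14350 ± 2427 (difference -0.69, limma adjusted p = 0.00426), so the carrier between complexes III and IV fell as well. NDUFA4, a subunit now placed in complex IV, differed by -0.72 (limma adjusted p = 0.0145). Of 8 genes listed with complex V, 3 fell: TMEM70 (-0.58), ATPAF1 (-0.38) and AFG3L2 (-0.18). The 12 genes of the complex IV list, CYCS and NDUFA4 among them, are 57.1% of that list. The 3 for complex III are 50% and the 3 for complex V 37.5% of theirs, beside 21.6% of all genes. NDUFA4, ATPAF1 and AFG3L2 were called in 4, 3 and 1 of the 6 fits that each left out 1 library.

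Genes that copy mitochondrial DNA, transcribe it or process its transcripts fell in larger numbers than they rose. Of 25 such genes, 20 fell (80%) and 1 rose (4%), beside 21.6% and 21.8% of all genes, with a median of -0.45. TFAM, which packages mitochondrial DNA and starts its transcription, stood at 4955 ± 83.0 against 7713 ± 706 (difference -0.63, SE 0.08, limma adjusted p = 0.000532). SLIRP, which with its partner LRPPRC stabilises mitochondrial mRNAs, stood at 2215 ± 190 against 4634 ± 706 (difference -1.06, SE 0.12, limma adjusted p = 0.000436), and MTERF3 differed by -0.89. PRORP, the nuclease that trims mitochondrial tRNAs, was the 1 gene that rose (0.48), and it was called in 2 of the 6 fits that each left out 1 library.

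Of 11 nuclear regulators of respiration, 6 fell (54.5%) and 4 rose (36.4%), beside 21.6% and 21.8% of all genes. GABPA with a beta partner, GABPB1 or GABPB2, forms the factor that binds the ETS core counted in the promoters above. GABPB1 fell (1084 ± 77.4 against 1719 ± 31.5, difference -0.67, limma adjusted p = 0.000599) and GABPA was not called (-0.01, limma adjusted p = 0.958). GABPB2 rose by 0.34 (limma adjusted p = 0.0268), a call kept in 2 of the 6 fits that each left out 1 library and lost with the length and GC correction (0.13, limma adjusted p = 0.302). NRF1, nuclear respiratory factor 1, fell by 0.31 on the log2 scale and ESRRA, an orphan receptor that drives respiratory genes, by 0.40. The coactivators PPARGC1A and PPARGC1B were called in opposite directions. PPARGC1A was read at 134.6, 203.0 and 92.3 against 65.4, 50.6 and 52.8 (difference 1.27, limma adjusted p = 0.00837) and PPARGC1B stood at 308 ± 60.8 against 483 ± 67.1 (difference -0.66, limma adjusted p = 0.0163). HIF1A, which represses mitochondrial respiration when oxygen is short, was higher (27238 ± 1030 against 17796 ± 971, difference 0.61, limma adjusted p = 0.00035), and TFEB rose by 0.75.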

How the data were processed

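RNA-seq of sorted cells gave 6 libraries, 3 per CD104 group. The authors deposited read counts divided by a library size factor, a signal per gene, with their log2 fold changes and p-values, in 1 table; tools named are FastQC, Salmon 1.3.0 and DESeq2, with GRCh38 (hg38), per the submitters' processing notes. The order of those steps, the annotation and the filter were not given in the sources used here. Row numbers leave 4871 genes out, so absence from the table says nothing about expression. Every deposited value was a whole multiple of its library's step within 0.01. GENCODE 29 matched 14994 genes (99.8%).

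The main test was limma 3.58.1 (R 4.3.3) with an intensity trend on log2(value + 1), for genes at 10 or more in at least 3 libraries, with Benjamini-Hochberg adjustment over all genes tested and a threshold of 0.05. Replicates were not blocked. The code was tested on simulated data. The length and GC correction subtracted, per library, a loess fit of each gene's deviation from its mean on longest transcript length and GC content. edgeR 4.0.16 and DESeq2 1.42.0 ran on recovered whole reads. Other settings were 2 pseudocounts, 2 filters, 3 scalings, a fit without the trend, leaving out each library, and a correction with principal transcripts chosen after seeing the data. Per-library values were given for all mitochondrially encoded genes, complex II subunits, isoform sets and up to 3 called genes of each list and direction by smallest p; from outside lists, the same with fixed regulators. A few further genes were chosen after their values were seen. Members and lists were chosen with earlier results of these data known.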

Additional observations from a re-analysis of the deposited data

How the results depend on the processing

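Of the 65 members, 36 were called lower and 0 higher in the fit as reported. Leaving out each library in turn gave 28 to 41 lower, 0 to 1 higher, a member median of -0.39 to -0.31, and 4097 to 6390 called genes in all, beside 6257. The count of 4097 came without CD104low replicate 1, and 28 of the 36 were called in all 6 such fits. Quantile normalization called 1 member higher (SDHC), scaling to the total without mitochondrially encoded genes 2 (SDHC and COX2), and 2 were higher in the authors' deposited table. The length and GC correction called 5 higher and gave a member median of -0.19. With principal transcripts, chosen after seeing the data, it also called 5 higher, with a median of -0.21. Of the 36 genes called lower, the correction on the longest transcript reversed SDHD (0.04), COX6A1 (0.10) and ATP5MG (0.03). That on principal transcripts reversed SDHD (0.01) but left COX6A1 at -0.17 and ATP5MG at -0.14, neither called. edgeR called 37 and DESeq2 38 members lower. COX7B was not called by limma without the trend (adjusted p = 0.053). The difference between the groups in the share of reads on mitochondrially encoded members was 0.0428 to 0.192 percentage points when a library was left out, and 0.0983 with all. Replicates of 3 per group and the depth given above limit precision.

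With a replicate block, that is the number of each replicate as a term, the fit called 42 members lower, all 36 among them, 1 higher (SDHC), and 7876 genes in all. The labels name no pairs, so the numbers were not taken as pairs in the main fit. Same-numbered samples deviated together with r = 0.08, 0.36 and 0.32 across genes, and differently numbered ones with r from -0.32 to 0.01. Every sample correlated best with its own number, a hint from the data, not the design.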

Other observations

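Other mitochondrial genes fell alongside complexes II to V, in differing shares. Of 77 mitochondrial ribosomal protein genes, 60 (77.9%) fell and none rose (median -0.49), and of 35 complex I nuclear subunits tested, 15 (42.9%) fell and none rose (median -0.22), beside 21.6% of all genes that were lower. All 6 carriers that exchange ADP, ATP and phosphate or form the outer membrane pore fell (median -0.34), among them SLC25A4 (-0.51), the adenine nucleotide carrier, and the pores VDAC3 (-0.50) and VDAC2 (-0.26). Once corrected for length and GC content, 3 carriers were still called lower, and VDAC2 (-0.02), VDAC1 (-0.09) and SLC25A5 (-0.22) were not. SLC25A3 and SLC25A5 were near the threshold (limma adjusted p = 0.0449 and 0.0496) and were called in 0 and 2 of the 6 fits that each left out 1 library.

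Coenzyme Q carries electrons from complex II to complex III. Of 13 genes for its synthesis, 4 fell (30.8%) and 1 rose (7.69%), near the 21.6% of all genes that were lower and under the 21.8% that were higher. PDSS1, which makes its side chain, stood at 586 ± 58.3 in CD104high and 1431 ± 188 in CD104low (difference -1.28, limma adjusted p = 0.000285, n = 3), COQ3 differed by -0.74 and COQ2 by -0.42. COQ8B, a kinase-like protein of the pathway, rose by 0.57. The citric acid cycle feeds succinate to complex II, and of its 14 genes 5 fell (35.7%) and 3 rose (21.4%), beside 21.6% and 21.8% of all genes, with a median of -0.14. FH, which uses the fumarate that complex II makes, fell by 0.45, SUCLA2 by 0.47 and IDH3B by 0.33, while IDH2 (0.45), SUCLG2 (0.23) and OGDH (0.30) rose. OGDH was called in 2, SUCLG2 in 4 and IDH2 in 5 of the 6 limma fits that each left out 1 library.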
